A study of Mus musculus with 16 samples.

Results

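Tumors that had received an antibody against PD-1 (aPD-1) and were designated non-responders (NR) were compared with tumors that had received control IgG, across all genes tested. The members were the 6 NR tumors (replicates 9 to 14) and the 8 IgG control tumors (replicates 1 to 8), 14 of the 16 tumors sequenced, and they were taken by their labels. The other 2 tumors were aPD-1 responders (R). All tumors grew from MC38, a mouse colon carcinoma cell line, after 1000000 cells were injected under the skin of the right flank of female C57BL/6 mice aged 6 to 8 weeks. Each tumor came from another mouse. Mice entered the study when the tumor measured 150 to 250 mm3 on day 16, and were assigned at random to 200 µg of IgG or aPD-1 on days 16 and 20. Tumors were harvested on day 21, and RNA from 2 sections of 100 µm of each fresh-frozen block was sequenced after poly(A) selection. The question was how a tumor that had received aPD-1, but stained low for CD8 T cells, differed from a tumor without it. Response was assigned from CD8 staining of the same tumors and not at random. The tumors with the most CD8 T cells were thereby removed from the treated arm, and T cell transcripts are not independent of that assignment.

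PD-1 is an inhibitory receptor on activated T cells, and its ligand PD-L1 is carried by tumor and myeloid cells. T cells that recognise their target release interferon gamma, which acts through IRF1 on neighboring cells and turns on chemokines, guanylate-binding proteins, PD-L1 and the antigen presentation machinery. Cholesterol and fatty acid synthesis are driven by the SREBP transcription factors, which are released when cell sterols are low.

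Levels are given in CPM, counts per 1000000 counts of the tumor after trimmed-mean scaling, and changes as log2 fold changes of NR over IgG control from an edgeR fit. A gene was called at a Benjamini-Hochberg adjusted p below 0.05 with a log2 fold change above 1 in size. Totals ran from 26603449 to 39948866 counts per tumor. Several libraries stood apart. Mitochondrially encoded genes took 7.32% of the counts in IgG control replicate 1, 5.80% in NR replicate 9 and 5.54% in NR replicate 14, against 1.84% to 3.01% in the other 11 of the 14 tumors. The mean share was 3.09% ± 1.74 (SD, n = 8) in IgG control and 3.72% ± 1.52 (SD, n = 6) in NR tumors (2-sided exact permutation test, p = 0.479). Without IgG control replicate 1 the difference went from 0.636 to 1.24 percentage points, with an exact permutation p of 0.0140. The comparison was therefore fitted with all 16 tumors (16-tumor fit) and without those 3 (13-tumor fit, 7 IgG control and 4 NR tumors), in each case with the 2 R tumors as a group of their own. In IgG control replicate 3, 20.4% of counts fell on the rRNA gene CT010467.1, against 0.489% or less elsewhere. Skeletal muscle markers summed to 2327 CPM in IgG control replicate 6 and to at most 86.3 CPM in any NR tumor. Liver markers summed to 121 CPM in NR replicate 14 and to at most 1.08 CPM in any IgG control tumor. Epithelial markers were close to absent in these colon carcinoma tumors: Epcam reached 0.942 CPM and Krt20 0.366 CPM at most, Cdx2 was at 0 in 13 of the 14, and Cdh1 was at 3.75 to 8.12 CPM.

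**Figure D1:**
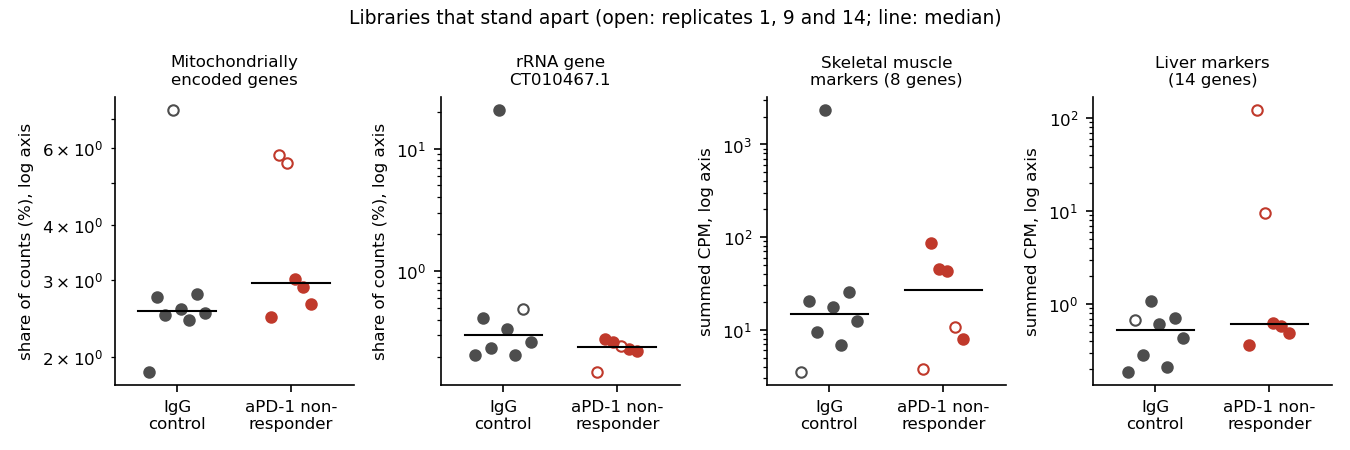
Share of counts (in percent) or summed CPM in each tumor, on log axes, for the IgG control (grey, n = 8) and NR (red, n = 6) tumors, with a line at the group median and open circles for replicates 1, 9 and 14. The open circles lie highest for the mitochondrial share, and single tumors stand far above their group for the rRNA gene, for muscle markers and for liver markers.

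No gene was called among 18251 tested in the 16-tumor fit (0%), and none reached an adjusted p below 0.05. The smallest adjusted p was 0.442, for Ifitm1. At an unadjusted p below 0.05, 467 genes were higher (2.56%) and 227 lower (1.24%) in NR tumors. These 694 genes were a smaller share of those tested than the 0.05 that such a threshold passes on average when no gene differs. DESeq2 on the same counts called 4 genes and put 10 at an adjusted p below 0.05, all higher. Groups that did not overlap were rare, with 3 genes above (0.0164%) and 4 below (0.0219%) in all 6 NR tumors. The 95% interval of a fold change reached 0.39 to each side at the median gene, and for 75.4% of genes it lay wholly within 1 log2 unit of 0.

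In the 13-tumor fit 1 of 17822 genes was called (0.00561%), again Ifitm1. At an unadjusted p below 0.05, 882 genes were higher (4.95%) and 638 lower (3.58%). All 4 remaining NR tumors lay above all 7 IgG controls for 154 genes (0.864%) and below them for 119 (0.668%). DESeq2 put 138 genes higher (0.774%) and 41 lower (0.23%) at an adjusted p below 0.05. Of the 138 higher genes, 35 belonged to the 73 members of the interferon and antigen presentation lists described below, and of the 41 lower genes 6 belonged to the 26 cholesterol genes and 6 to the 12 fatty acid genes. The spread between tumors of a group narrowed without the 3 tumors: the median SD of log2 CPM went from 0.36 to 0.21 in IgG control and from 0.32 to 0.19 in NR tumors. Leaving out IgG control replicate 1 alone raised the genes at an unadjusted p below 0.05 from 694 to 3219, with 7 at an adjusted p below 0.05 (Apol9b, Gm4841, Irf1, Psmb9, Tmem140, Ubd and Upp1). Leaving out IgG control replicate 8 as well as the 3 tumors raised the calls from 1 to 32.

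Ifitm1, a member of the interferon-induced transmembrane protein family (chromosome 7, 140967221 to 140969825, GRCm38), had the smallest p in the 16-tumor fit. Its level ran from 5.55 CPM through a median of 8.12 to 12.02 in IgG control tumors, and from 11.4 through 23.6 to 30.7 in NR tumors. Of the 6 NR tumors 5 lay above all IgG controls, and NR replicate 9, a high-mitochondrial tumor, lay within their range. The log2 fold change was 1.32 (95% interval 0.84 to 1.80) with an edgeR adjusted p of 0.442, and 1.57 (1.16 to 1.98) with an adjusted p of 0.0192 in the 13-tumor fit. That adjusted p was above 0.05 when any of NR replicates 11, 12 and 13 or IgG control replicates 2, 3 and 5 was left out, at 0.141 at most. Across all 25 fits that left out a tumor, the log2 fold change lay between 1.18 and 1.66. Of 6 family members tested, 5 lay above 0 in each fit, with medians of 0.36 and 0.39. At an unadjusted p below 0.05, 2 and 3 of the 6 were higher, against 2.56% and 4.95% of all genes. The sizes differed within the family: Ifitm3 had a log2 fold change of 0.31 (0.03 to 0.59) and Ifitm2 of 0.04 (-0.14 to 0.21) in the 16-tumor fit.

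The other genes with the smallest p among those higher in NR tumors were Bcl2a1d, Upp1, Ly6a, AA467197, Cxcl9, Ubd and Pla2g16, with edgeR adjusted p-values from 0.692 to 0.763. All but Ubd were at a DESeq2 adjusted p below 0.05 in all tumors. Bcl2a1d, of the anti-apoptotic BCL2A1 family whose near-identical copies share reads, went from 11.3, 11.7 and 13.6 CPM (lowest, median, highest) in IgG control to 13.3, 16.0 and 17.8 in NR tumors. Upp1, uridine phosphorylase, went from 40.9, 46.9 and 60.2 to 60.1, 69.8 and 78.2 CPM. In both, a single NR tumor lay within the IgG control range. AA467197, the mouse counterpart of C15orf48, ran from 30.6 to 47.6 and from 45.0 to 94.3 CPM, and Pla2g16, a phospholipase, from 50.7 to 61.9 and from 59.6 to 82.2 CPM, each with 5 of 6 NR tumors above every control. Ly6a, the surface protein Sca-1 and an interferon-responsive gene, had log2 fold changes of 0.71 (0.39 to 1.03) and 0.88 (0.55 to 1.21) in the 16- and the 13-tumor fit. Ubd, an interferon-inducible ubiquitin-like protein, ran from 9.05 to 21.4 CPM in IgG control and from 15.8 to 30.5 in NR tumors, with 3 of 6 NR tumors above all controls. The top IgG control value of Ubd was that of replicate 1, and the next, 18.5, that of replicate 8.

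**Figure D2:**
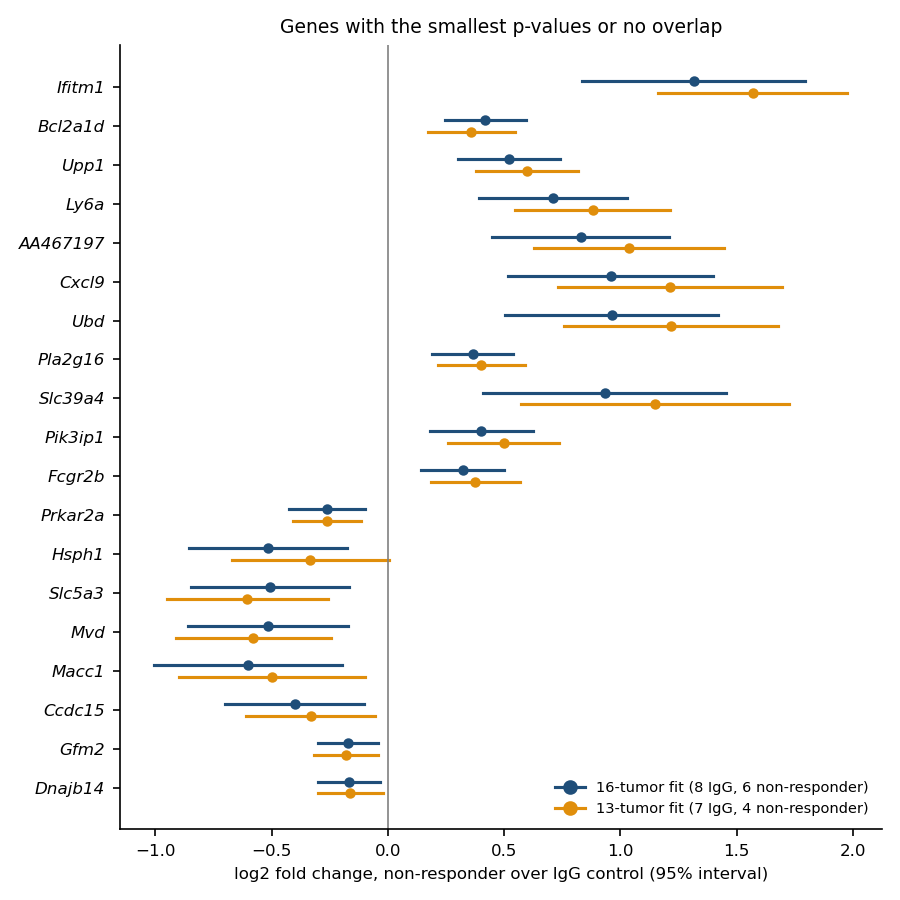
Log2 fold changes of NR over IgG control with 95% intervals for genes named by their p-values or by groups that did not overlap, in the 16-tumor fit (blue) and the 13-tumor fit (orange). Ifitm1 lies farthest to the right at 1.32 and 1.57, and the genes at the bottom, such as Dnajb14 at -0.17 and -0.16, lie close to 0 with narrow intervals.

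Genes that respond to interferon gamma were higher in NR tumors as a group. All 26 members of the list lay above 0, with a median log2 fold change of 0.67 in the 16-tumor fit and 0.83 in the 13-tumor fit, where the median of all genes was -0.0057 and -0.011. At an unadjusted p below 0.05, 23 of 26 members were higher in the 16-tumor fit, against 2.56% of all genes, and 25 in the 13-tumor fit, against 4.95%. No member passed an edgeR adjusted p of 0.05 in either fit, the smallest being 0.725 and 0.101, while DESeq2 placed 22 members below 0.05 in the 13-tumor comparison and 1, Cxcl9, in all tumors. The count at an unadjusted p below 0.05 stayed between 17 and 26 when any of the 14 tumors was left out of the 16-tumor fit. The mean level of the list in IgG control tumors was highest in replicates 1 and 8, at 6.27 and 6.16 log2 CPM, against 5.19 to 5.51 in the other 6 and 5.92 to 6.70 in NR tumors.

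Chemokines that draw in activated T cells were among the members. Cxcl9 ran from 56.3 through a median of 82.8 to 126 CPM in IgG control and from 119 through 163 to 260 in NR tumors, with 4 of 6 NR tumors above every control and a log2 fold change of 0.96 (0.52 to 1.40). The related Cxcl11 was at 0.99 (0.38 to 1.60) and Cxcl10 at 0.51 (0.11 to 0.91). Irf1, the transcription factor that relays the interferon gamma signal, lay between 349 and 399 CPM in every NR tumor and between 238 and 313 in 7 IgG controls, but at 476 in IgG control replicate 1. Its groups overlapped for that tumor alone, and the log2 fold change went from 0.39 (0.09 to 0.68) to 0.51 (0.32 to 0.71) in the 13-tumor fit. The immunity-related GTPase Tgtp1, which shares sequence with Tgtp2, had a log2 fold change of 1.20 (0.57 to 1.83), and its levels of 26.3 to 82.6 CPM in IgG control and 52.2 to 152 CPM in NR tumors overlapped. The guanylate-binding protein Gbp2 ranged from 287 to 667 CPM in IgG control and from 363 to 1065 in NR tumors, with a log2 fold change of 0.67 (0.15 to 1.19). In 3 of 6 NR tumors it exceeded every control, and replicates 9 and 14 were the lowest NR tumors. Ido1, which degrades tryptophan, had the highest fold change of the list at 1.29 (0.16 to 2.43), at a level of at most 2.94 CPM. Members of the guanylate-binding and GTPase families have close copies that share reads, so their separate values are uncertain.

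**Figure D3:**
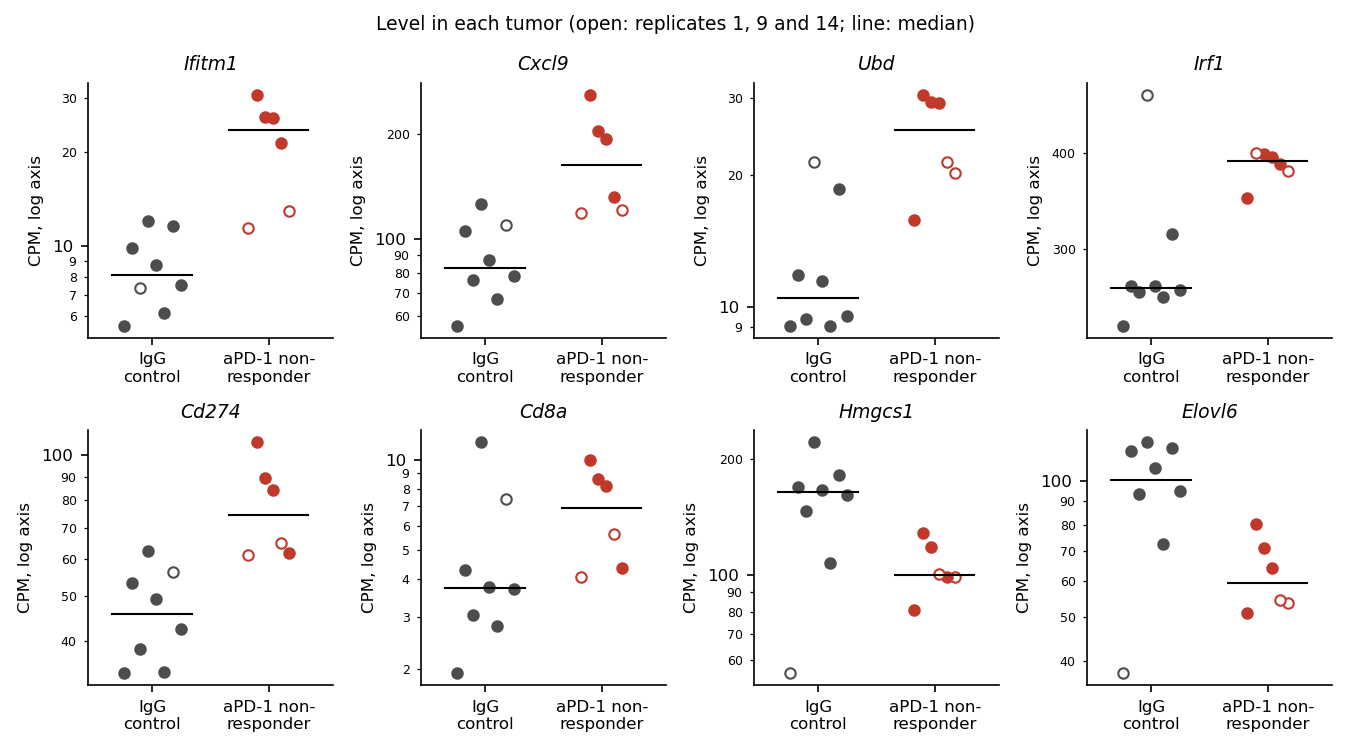
CPM of 8 genes in each IgG control (grey, n = 8) and NR (red, n = 6) tumor on log axes, with a line at the median and open circles for replicates 1, 9 and 14. Ifitm1, Cxcl9, Ubd, Irf1 and Cd274 have higher NR medians. Cd8a has a higher NR median too, with every NR value inside the IgG control range. Hmgcs1 and Elovl6 have lower NR medians with IgG control replicate 1 below every NR tumor.

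Promoters of these genes are shown because the members were higher together. RefSeq promoter sequence (GRCm38.p6) was on hand for 15 of the 26 list members. The interferon-stimulated response element was searched as GAAA, any 2 bases and GAAA again, and the gamma-activated site as TTCNNNGAA, with N for any base, on both strands, in the 250 bases before the transcript start. The former was found in 11 of 15 members (73.3%) and in 3.04% of all 27025 promoters, and the latter in 8 of 15 (53.3%) and in 7.18% of all promoters. The former was also in 7 of 16 promoters of the type I interferon list (43.8%) and in 2 of 10 of the MHC class I list (20%). The list was made of genes that respond to interferon gamma, so a high share of matches comes with the choice of members. It is no result of these tumors, and members that are close copies of each other are not independent. A match is a run of letters and not a measured binding site. The members with a match and the smallest p in the 13-tumor fit follow, with the matches to the interferon-stimulated response element, or their reverse complement, in capitals. Irgm1 is at chr11:48871421-48871670 on the minus strand, Gbp3 at chr3:142559794-142560043 and Gbp2 at chr3:142620413-142620662, both on the plus strand. In Irgm1 and Gbp3 a pair of matches overlaps.
Irgm1: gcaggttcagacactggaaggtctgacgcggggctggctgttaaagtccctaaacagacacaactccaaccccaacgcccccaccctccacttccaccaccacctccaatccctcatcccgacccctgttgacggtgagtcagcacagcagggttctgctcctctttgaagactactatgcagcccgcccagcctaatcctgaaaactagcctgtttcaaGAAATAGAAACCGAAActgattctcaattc
Gbp3: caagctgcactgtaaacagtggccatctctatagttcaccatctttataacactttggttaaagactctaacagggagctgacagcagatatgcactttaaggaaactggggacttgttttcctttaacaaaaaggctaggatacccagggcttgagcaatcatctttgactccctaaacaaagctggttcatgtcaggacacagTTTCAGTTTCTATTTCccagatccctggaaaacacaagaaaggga
Gbp2: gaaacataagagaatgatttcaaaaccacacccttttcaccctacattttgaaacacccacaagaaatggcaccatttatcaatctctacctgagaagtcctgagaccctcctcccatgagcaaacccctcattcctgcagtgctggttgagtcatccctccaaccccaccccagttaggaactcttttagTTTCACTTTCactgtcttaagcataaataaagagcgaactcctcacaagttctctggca
The 3 genes had log2 fold changes in the 13-tumor fit of 0.64 (0.35 to 0.92) for Irgm1, 0.77 (0.43 to 1.11) for Gbp3 and 0.91 (0.50 to 1.31) for Gbp2.

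Antigen presentation genes differed in the same direction by a smaller amount. All 12 members of the MHC class I list lay above 0, with a median of 0.32 in the 16-tumor and 0.46 in the 13-tumor fit. At an unadjusted p below 0.05, 9 and 11 of them were higher (6 in the 16-tumor fit without NR replicate 11). Of all genes, 2.56% and 4.95% were higher at that threshold in the 2 fits. No member of the MHC class I list passed an edgeR adjusted p of 0.05. DESeq2 placed 9 of 12 below it in the 13-tumor comparison and none in all tumors. Psmb8, an immunoproteasome subunit, ran from 280 through 319 to 401 CPM in IgG control and from 347 through 387 to 458 in NR tumors. Its highest control was replicate 1, and without the 3 tumors the groups did not overlap. Psmb9, another such subunit, was at 57.4 to 83.3 CPM in 7 controls, at 139 in replicate 1, and at 81.0 to 118 in NR tumors. Tap1, of the peptide transporter, had a log2 fold change of 0.40 (0.10 to 0.71), B2m, the light chain of MHC class I, of 0.44 (0.15 to 0.74) and the heavy chain gene H2-K1 of 0.33 (0.07 to 0.59). The 7 MHC class II genes had a median of 0.43 and 0.63 in the 2 fits, with 2 and 3 members at an unadjusted p below 0.05. Type I interferon response genes had a median of 0.25 and 0.32, and 3 and 4 of 21 were higher at that threshold. The count of the 16-tumor fit was 0 without NR replicate 11, 12 or 13, 1 without any of 7 other tumors and 8 without IgG control replicate 1. Isg15, a member of that list, overlapped broadly, at 70.0 to 242 CPM in IgG control and 91.4 to 220 in NR tumors.

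The genes of PD-1 and its ligands all had log2 fold changes above 0, with 2 of 3 at an unadjusted p below 0.05 in the 16-tumor fit and 3 in the 13-tumor fit. Of all genes, 2.56% and 4.95% were higher at that threshold. Cd274, which encodes PD-L1, ran from 34.2 through 45.9 to 62.5 CPM in IgG control and from 61.0 through 74.6 to 107 in NR tumors, with 4 of 6 NR tumors above every control. Its log2 fold change was 0.75 (0.35 to 1.15) in the 16-tumor and 0.93 (0.45 to 1.41) in the 13-tumor fit, and DESeq2 gave an adjusted p of 0.00472 in the latter. Pdcd1, which encodes PD-1, ran from 1.35 to 4.63 CPM in IgG control. In NR tumors it was highest, at 4.99 to 7.92 CPM, in replicates 11, 12 and 13 and lowest, at 1.28 and 1.02 CPM, in the high-mitochondrial replicates 9 and 14, so that its NR values lay both above and below all controls. Pdcd1lg2, which encodes PD-L2, was at 0.197 to 1.46 CPM in IgG control and 0.61 to 3.44 in NR tumors. Ifng, the interferon gamma gene, was at 0.36 to 1.97 CPM in IgG control and 0.729 to 3.37 in NR tumors, with a log2 fold change of 1.21 (0.31 to 2.11) and an unadjusted p of 0.0116 from edgeR.

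T cell genes lay above 0 throughout, but fewer passed an unadjusted p of 0.05. All 11 members of the T cell list were above 0, with a median of 0.61 in the 16-tumor and 0.84 in the 13-tumor fit. At that threshold 4 and 9 members were higher, against 2.56% and 4.95% of all genes. In bulk tissue, more T cells and more RNA per T cell cannot be told apart. The number at that threshold moved between 0, without IgG control replicate 4 or 7 or NR replicate 11, and 9, without IgG control replicate 8, the control with the highest T cell level. In the 13-tumor fit it was 1 without NR replicate 11. Summed over the list, the level ran from 11.3 to 38.8 CPM in IgG control and from 17.5 to 47.7 in NR tumors, against 324 and 353 CPM in the 2 R tumors. The part of T cell content in the values of the interferon gamma list was not tested. Cd8a, the CD8 alpha chain, ran from 1.94 through 3.74 to 11.5 CPM in IgG control and from 4.06 through 6.90 to 9.97 in NR tumors, and the groups overlapped, with a log2 fold change of 0.51 (-0.22 to 1.23). Of 14 cytotoxic effector genes all lay above 0 with a median of 0.64, and 2 were higher at an unadjusted p below 0.05 in each fit. Gzmb, granzyme B, had a log2 fold change of 0.78 (-0.04 to 1.60). Among 8 checkpoint genes 3 were higher at that threshold in the 16-tumor and 6 in the 13-tumor fit. Ctla4, an inhibitory receptor, ran from 1.25 to 2.87 CPM in IgG control and from 2.03 to 4.55 in NR tumors, with 5 of 6 above every control, and Icos, a costimulatory receptor, had a log2 fold change of 0.75 (0.22 to 1.27). Both were at a DESeq2 adjusted p below 0.05 without the 3 tumors. Of 6 regulatory T cell genes 1 and 3 were higher at an unadjusted p below 0.05, among them Foxp3, their defining factor, with 5 of 6 NR tumors at 1.16 to 1.65 CPM, above every control, and NR replicate 14 at 0.44.

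**Figure D4:**
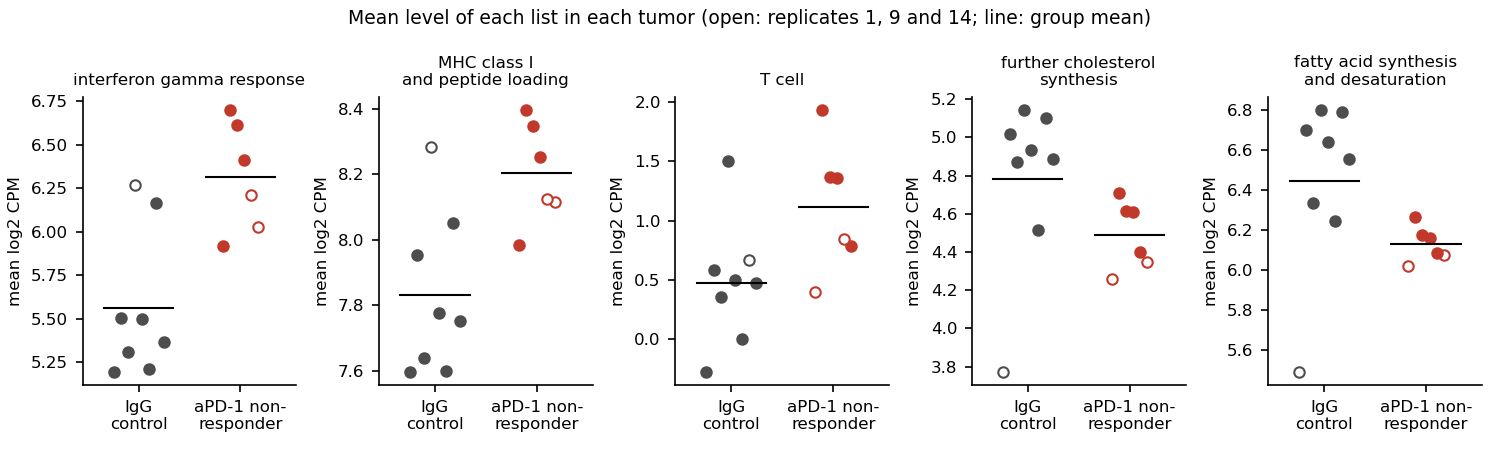
Mean log2 CPM over the members of 5 gene lists in each IgG control (grey, n = 8) and NR (red, n = 6) tumor, with a line at the group mean and open circles for replicates 1, 9 and 14. IgG control replicate 1 lies at 6.27 among the NR tumors for interferon gamma genes and below every other tumor for both lipid lists, at 3.77 for further cholesterol synthesis and 5.49 for fatty acid synthesis.

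Markers of other cells in the tumor had few members past an unadjusted p of 0.05. Of all genes, 2.56% were higher at that threshold in the 16-tumor fit and 4.95% in the 13-tumor fit. All 8 B cell genes lay above 0 in the 16-tumor fit with a median of 0.64 and 1 past that threshold, and in the 13-tumor fit the median was 0.30 with none. Their summed level was at most 7.97 CPM in IgG control and 6.71 CPM in NR tumors. All 7 NK cell genes lay above 0 with a median of 0.36 and 0.44 and 1 past the threshold in each fit. Of 7 neutrophil genes tested 6 and 7 lay above 0 with a median of 0.52 and 0.82, and none and 1 were past it, at a summed level of 44.4 to 121 CPM in IgG control and 54.3 to 115 in NR tumors. Of 16 macrophage and monocyte markers 2 were higher and none lower at an unadjusted p below 0.05 in the 16-tumor fit, and 6 in the 13-tumor fit, with a median of 0.18 and 0.22. Their summed level ran from 2084 to 3101 CPM in IgG control and from 2045 to 3911 in NR tumors. Arg1, arginase, was at 87.7 to 180 CPM in IgG control and 136 to 344 CPM in NR tumors, with 5 of 6 above every control and a log2 fold change of 0.87 (0.23 to 1.52). Nos2, the inducible nitric oxide synthase, had a log2 fold change of 0.60 (-0.17 to 1.38). Fibroblast markers had a median of 0.21 in the 16-tumor and 0.45 in the 13-tumor fit, with none and 1 of 12 past that threshold. Fat cell, blood vessel, mast cell, red blood cell, plasma cell and keratinocyte markers had no member past it in either fit, and Ly6g of the neutrophil list was at 0 in all 14 tumors.

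Some genes outside the lists were chosen after their values were seen, and are described only. They differed between the groups once the 3 tumors were left out, and of those named here all but Bst1 did so without overlap. Among all 17822 genes tested, 154 (0.864%) lay above and 119 (0.668%) below without overlap in that comparison. Lack of overlap in genes picked by their values is thus no evidence of a difference. Nupr1, Chac1 and Trib3 are known targets of the ATF4 stress response. No list of its targets was examined, and whether that response differed between the groups was not tested. Nupr1 lay between 86.5 and 98.8 CPM in the 7 IgG controls and between 122 and 135 in the 4 NR tumors, with a log2 fold change of 0.42 (0.29 to 0.55), but stood at 270 CPM in IgG control replicate 1 and at 186 and 173 in NR replicates 9 and 14. Chac1, which degrades glutathione, was at 20.2 to 30.0 CPM in all IgG controls, at 35.1 to 42.1 in 5 NR tumors and at 15.5 in NR replicate 9. Trib3 was at 145 to 169 CPM in 5 NR tumors and at 93.2 in NR replicate 9, against 90.0 to 147 in IgG control. DESeq2 put all 3 genes at an adjusted p below 0.05 without the 3 tumors, while edgeR with its 13-tumor fit put none there. Bst1, an ectoenzyme of myeloid and stromal cells, ran from 4.17 to 9.36 CPM in IgG control and from 9.14 to 21.0 in the 4 NR tumors, with 3 of those 4 above every control, and was at 4.18 and 4.64 in NR replicates 9 and 14. Hk3, a hexokinase of myeloid cells, was at 42.2 to 61.7 CPM in those 4 NR tumors and at 20.9 to 37.9 in all IgG controls.

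Genes of cholesterol synthesis were lower in NR tumors. Of the 16 further cholesterol synthesis genes, 14 lay below 0 in the 16-tumor fit and 15 in the 13-tumor fit, with a median of -0.37 and -0.44, where 51.2% and 52.6% of all genes were below 0. At an unadjusted p below 0.05, 5 and 12 of the 16 were lower, against 1.24% and 3.58% of all genes. No member passed an edgeR adjusted p of 0.05, and DESeq2 placed 5 of 16 below it in the 13-tumor comparison and none in all tumors. The 10 cholesterol genes that the study named had a median of -0.29 and -0.43, with 2 and 8 lower and 1 higher in each fit. They were chosen by the study on these tumors, and so are no independent evidence of a direction. The study chose them, within a larger set, as higher in NR than in R tumors by spatial transcriptomics, and not against IgG control. In the bulk counts their mean log2 CPM was 6.38 in IgG control, 6.20 in NR and 5.63 in R tumors.

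IgG control replicate 1 had the highest mitochondrial share of the 14 tumors. It was the lowest of all 14 for 13 of the 16 further genes and 7 of the 10 named by the study. In the 16-tumor fit the number of further genes lower at an unadjusted p below 0.05 was 12 without IgG control replicate 1, 7 without IgG control replicate 8 or NR replicate 12, 3 without any of the others except NR replicate 10, where it was 5. For the genes named by the study it was 6 without IgG control replicate 1, 4 without IgG control replicate 8, 3 without NR replicate 12, 0 without IgG control replicate 4 or NR replicate 11, and 1 without any of IgG control replicates 3, 5, 6 and 7 and NR replicates 9, 13 and 14. In the 13-tumor fit the counts were 11 to 13 and 6 to 8 with a tumor left out. Idi1, isopentenyl-diphosphate isomerase, was at 13.2 CPM in IgG control replicate 1, at 30.8 and 32.0 in NR replicates 9 and 14, at 56.6 to 97.7 in the other controls and at 42.5 to 66.3 in the other NR tumors. Within each group the high-mitochondrial tumors were thus the lowest for Idi1. Among NR tumors the lists did not all follow Idi1. Summed over the genes named by the study, NR replicates 9 and 14 were at 903 and 918 CPM. The other NR tumors were at 732 to 964. Over the further genes replicates 9 and 14 were at 590 and 623 CPM, against 554 to 744. By mean log2 CPM, the lowest NR value of the further genes was 4.26, against 4.40 without replicates 9 and 14. With the mitochondrial share as a covariate the median of the further cholesterol genes was -0.15 with 2 members lower at an unadjusted p below 0.05, and that of the genes named by the study -0.14 with none. In the 13-tumor fit the share ran from 1.84% to 3.01% in IgG control and NR tumors and reached 3.15% in R replicate 16. There the same covariate left the medians of the 2 lists at -0.42 and -0.46, with 10 and 7 members lower.

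Hmgcs1, an early enzyme of cholesterol synthesis, ran from 55.4 through 163 to 221 CPM in IgG control and from 80.7 through 99.6 to 128 in NR tumors. Its log2 fold change was -0.54 (SE 0.22) in the 16-tumor fit and -0.63 (-0.99 to -0.27) in the 13-tumor fit. Mvd, mevalonate diphosphate decarboxylase, was among the 8 genes with the smallest p on the lower side, at 13.04 to 31.1 CPM in IgG control and a narrow 14.3 to 16.8 in NR tumors, and Lss, lanosterol synthase, was at -0.41 (-0.74 to -0.07). Sqle, squalene epoxidase, had a log2 fold change of -0.29 (-0.69 to 0.11). Ch25h, which turns cholesterol into an oxysterol and is known to be induced by interferon, was the member that was higher, at 23.8 to 43.7 CPM in IgG control and 36.3 to 46.2 in NR tumors, with a log2 fold change of 0.38 (0.12 to 0.65).

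A sterol regulatory element was searched as TCACNCCAC, on both strands, in the same 250 bases. Promoter sequence was on hand for 6 of the 10 genes named by the study and 12 of the 16 further genes, and a match was found in 1, Hmgcs1, against 1.04% of all promoters. It is shown as the example among the lower genes, with the match in capitals, and lies at chr13:119690101-119690350 on the plus strand.
Hmgcs1: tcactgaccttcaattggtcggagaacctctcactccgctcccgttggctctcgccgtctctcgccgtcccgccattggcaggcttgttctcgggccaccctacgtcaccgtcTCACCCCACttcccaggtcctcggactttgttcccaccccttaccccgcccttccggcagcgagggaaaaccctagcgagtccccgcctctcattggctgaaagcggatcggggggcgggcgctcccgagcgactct

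Fatty acid synthesis genes, a list added after values had been seen, followed the same pattern. All 12 were below 0 with a median of -0.36 in the 16-tumor and -0.44 in the 13-tumor fit. At an unadjusted p below 0.05, 4 and 8 were lower, against 1.24% and 3.58% of all genes. DESeq2 placed 6 of the 12 below an adjusted p of 0.05 in the 13-tumor comparison. Elovl6, a fatty acid elongase, ran from 37.5 through 101 to 122 CPM in IgG control and from 51.0 through 59.4 to 80.2 in NR tumors, with IgG control replicate 1 the lowest of all. Its log2 fold change was -0.61 (-1.05 to -0.16) and -0.63 (-0.97 to -0.30). Acly, which supplies cytosolic acetyl-CoA, was at 105 CPM in IgG control replicate 1, 293 to 411 in the other controls, 159 and 158 in NR replicates 9 and 14 and 267 to 303 in the other NR tumors. Scd2, a desaturase, had a log2 fold change of -0.51 (-0.81 to -0.20) in the 13-tumor fit. With the mitochondrial share as a covariate of the 16-tumor fit the median of the list was -0.14. The count of lower genes was 9 in the 16-tumor fit without IgG control replicate 1, 2 without IgG control replicate 3 and 3 or 4 without any other tumor, and 8 in each fit that left a tumor out of the 13.

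**Figure D5:**
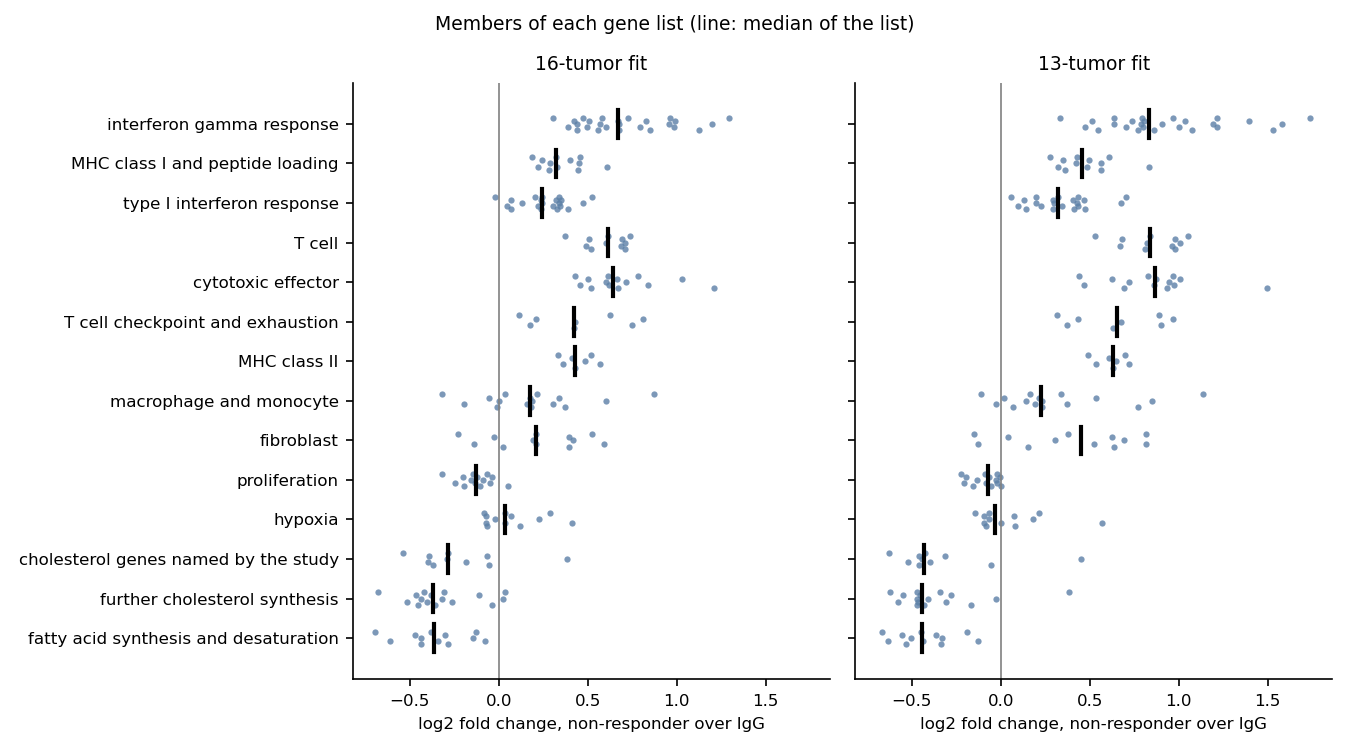
Log2 fold change of NR over IgG control for each member of 14 gene lists in the 16-tumor fit (left) and the 13-tumor fit (right), with a line at the median of each list. Interferon gamma genes lie right of 0 with medians of 0.67 and 0.83, the 3 lipid synthesis lists lie mostly left of it with medians from -0.44 to -0.29, and hypoxia genes lie around 0.

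Other genes with the smallest p among those lower in NR tumors were Prkar2a, Hsph1, Slc5a3 and Macc1, with edgeR adjusted p-values of 0.987. Prkar2a, a regulatory subunit of protein kinase A, was at 109 to 150 CPM in IgG control and 93.4 to 119 in NR tumors. Hsph1, a heat shock protein of the HSP110 family, was at 178 to 338 and 125 to 210 CPM, with 4 of 6 NR tumors below every control. Slc5a3, the myo-inositol transporter, was at 58.8 to 127 and 52.5 to 77.4 CPM, and without the 3 tumors its groups did not overlap. Macc1 was at 1.44 to 2.37 and 0.915 to 1.75 CPM.

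Some genes of at least 1 CPM had groups without overlap. They come from the 3 genes above (0.0164%) and 4 below (0.0219%) among all 18251 tested. The 14 tumors can be split in 3003 ways, of which 1 puts the NR tumors wholly above and 1 wholly below. Those counts are thus no more than chance gives, and the genes are described only. Fcgr2b, the inhibitory Fc gamma receptor, ran from 97.0 through 116 to 127 CPM in IgG control and from 131 through 142 to 153 in NR tumors, with a log2 fold change of 0.32 (0.14 to 0.50). Pik3ip1, a negative regulator of PI3 kinase, was at 8.86 to 13.1 and 13.5 to 18.6 CPM, and the zinc transporter Slc39a4 at 0.422 to 0.914 and 0.972 to 1.93 CPM. The log2 fold changes of those genes were 0.40 (0.18 to 0.62) for Pik3ip1 and 0.93 (0.41 to 1.46) for Slc39a4. On the lower side, Ccdc15 was at 4.16 to 7.11 and 3.17 to 4.15 CPM, Gfm2, a mitochondrial translation factor, at 41.0 to 48.7 and 36.4 to 39.9 CPM, and Dnajb14, an HSP40 chaperone, at 51.8 to 57.4 and 41.6 to 51.0 CPM. The log2 fold changes of those 3 were -0.40, -0.17 and -0.17.

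A single tumor set several of the remaining values. Myh7 and Igfn1, muscle genes with fold changes among the smallest p on the lower side, were at 30.2 and 57.9 CPM in IgG control replicate 6, which carried the skeletal muscle markers, and at 0.337 CPM or less in the other 13 tumors. Rmrp, an RNA without a poly(A) tail, was at 413 CPM in IgG control replicate 3 and at 3.24 CPM or less elsewhere. Ttr, one of the genes that DESeq2 called, was at 4.27 and 0.549 CPM in NR replicates 14 and 9 and at 0 in the other 12 tumors, and the liver gene Alb was at 64.4 and 4.76 CPM in those tumors and at 0.388 or less elsewhere. Gm44170, likewise called by DESeq2, was at 4.30 CPM in NR replicate 9, 3.53 in IgG control replicate 1, 0.508 in NR replicate 14 and 0 in the rest. Apol7c, the remaining DESeq2 call, was at 0.277 CPM or less in IgG control and at 0.203 to 0.658 in NR tumors.

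Proliferation and hypoxia showed little difference. Of 14 proliferation genes 13 lay below 0 with a median of -0.13 and none was past an unadjusted p of 0.05 in the 16-tumor fit, and Mki67, a marker of cycling cells, had a log2 fold change of -0.19 (-0.41 to 0.02). The 12 hypoxia genes had a median of 0.04 with none past that threshold, and in the 13-tumor fit 1 gene of each list was past it. Inflammatory cytokine and acute phase genes had a median of 0.46 in the 16-tumor fit, with 2 of 12 higher at that threshold, against 2.56% of all genes. Their members spread widely: Saa3, an acute phase protein, was at 1.29 to 39.6 CPM in IgG control and 1.46 to 64.5 in NR tumors.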

How the data were processed

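RNA of 16 MC38 tumors was sequenced as paired reads of 150 bases. Per the labels, the deposited table holds expected counts per gene that the authors made with STAR 2.6 and RSEM 1.3.0 on GRCm38, and 7.84% of its values are not whole. Of its 53557 rows, 92 are spike-in entries (at most 185 counts in a tumor) and were left out, which leaves 53465 genes. Counts were rounded and fitted with edgeR 4.0.16 (TMM scaling, filterByExpr, quasi-likelihood test, Benjamini-Hochberg adjustment over all genes tested) in R 4.3.3, with the groups IgG control, NR and R. Levels are CPM on TMM-scaled library sizes, with a prior count of 0.5 for mean log2 CPM. RSEM divides reads shared between near-identical genes by estimate. DESeq2 1.42.0, other scaling and filters, covariates and tumors left out were alternatives. The labels number tumors 1 to 16, and p-values measure the spread between tumors of separate mice. The named genes were those at an adjusted p below 0.05, the 8 smallest p-values per direction at 1 CPM or more, up to 5 per direction without overlap, DESeq2 calls and members of 31 lists. A further 3 lists were added after values were seen. Members, lists and tests were chosen with earlier results of these data known. Values of some list members are not reported here. Fits were checked on simulated counts. Totals of 26603449 to 39948866 counts set the depth, and low genes carry wide intervals.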

Additional observations from a re-analysis of the deposited data

Results flagged for a closer look

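Within each group the highest and lowest tumor were compared with the nearest other tumor by Dixon's test at the 95% level. Of 181 groups of values tested, 31 (17.1%) held a tumor far from the rest, where chance gives about 1 in 20. Several of the genes were named because a single tumor set their value, and measures of a tumor move together, so that the share is a description and no test.

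IgG control replicate 1 accounted for many of them. It had the highest mitochondrially encoded share of counts, 7.32%, the highest mean log2 CPM of mitochondrially encoded genes, 11.3, and the lowest total, 26603449 counts. It was the highest control for Irf1 at 476 CPM, Psmb8 at 401, Psmb9 at 139 and Isg15 at 242, and the lowest for Acly at 105 CPM. It was likewise the lowest control for the mean log2 CPM of further cholesterol synthesis, 3.77, fatty acid synthesis, 5.49, macrophage and monocyte markers, 6.01, mast cell markers, -1.13, and proliferation genes, 6.81. Gm44170 stood out at 3.53 CPM in this tumor and at 4.30 CPM in NR replicate 9.

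IgG control replicate 3 held 20.4% of its counts on the rRNA gene CT010467.1, a mean of 9.34 log2 CPM over RNAs without a poly(A) tail, and Rmrp at 413 CPM. IgG control replicate 6 held Acta1 at 334 CPM, Myh7 at 30.2, Igfn1 at 57.9, skeletal muscle markers at a mean of 8.03 log2 CPM and Gfm2 at 48.7 CPM. NR replicate 14 held Alb at 64.4 CPM and Ttr at 4.27, and plasma cell markers were lowest in NR replicate 10 at a mean of -3.16 log2 CPM. IgG control replicate 8 had Gbp2 at 667 CPM, checkpoint genes at a mean of 2.23 log2 CPM and Alb at 0.388 CPM. Bcl2a1d in IgG control replicate 5, at 13.6 CPM, and Apol7c in NR replicate 12, at 0.658 CPM, complete the list.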

How the results depend on the processing

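With all tumors, median-of-ratios scaling, other count filters, leaving out R tumors, removing mitochondrial genes or the rRNA gene (the last chosen after seeing the data), and all 8 aPD-1 tumors against IgG control gave 0 genes called and 0 at an adjusted p below 0.05. DESeq2 gave 4 and 10, the mitochondrial share as a covariate 1 and 1 (Gm43118, named after its value was seen), and leaving out replicates 1, 9 and 14 gave 1 and 1. Leaving out a tumor gave 0 to 2 genes called and 0 to 7 at an adjusted p below 0.05, the upper ends without IgG control replicate 1. Genes at an unadjusted p below 0.05, 694 with all tumors, numbered 1386 with no filter, 1520 without replicates 1, 9 and 14, 1129 without replicates 3 and 6 as well (chosen after seeing the data), 1800 with all 8 aPD-1 tumors, and 522 to 3219 with a tumor left out. In the 13-tumor fit, genes called and genes at an adjusted p below 0.05 were 1 and 1. DESeq2 gave 35 and 179, NR and IgG tumors alone 2 and 8, no filter 5 at an adjusted p below 0.05, the stricter filter 2, and 0 and 0 came from the mitochondrial covariate and from leaving out replicates 3 and 6 as well. Leaving out a tumor gave 0 to 32 and 0 to 83, the upper ends without IgG control replicate 8, and 882 to 1812 genes at an unadjusted p below 0.05, the lowest without NR replicate 11. The difference in mitochondrial share, 0.636 percentage points, lay between 0.220 and 1.24 with a tumor left out, and the 2-sided exact permutation p was 0.0140 without IgG control replicate 1 and at least 0.412 otherwise. Of the fold changes of 55 named genes, directions changed only for Acta1 (1.62 by DESeq2, 1.82 without replicates 1, 3, 6, 9 and 14, 1.67 without IgG control replicate 6, otherwise -2.49 to -3.25 with a tumor left out), Alb (-0.36 without those 5) and Gm44170 (-2.13 without NR replicate 9, 7.83 without IgG control replicate 1, which leaves every control at 0, and 21.9 by DESeq2, fitted values that are no bounds), genes that 1 or 2 tumors set. Under median-of-ratios scaling and without replicates 1, 9 and 14, the settings run for all 34 lists, the median of the liver genes alone moved by more than the spread between tumors. With all 8 aPD-1 tumors the T cell median went from 0.61 to 2.53. Under median-of-ratios scaling the median over genes of the shift in log2 fold change was -0.0059 in the 16-tumor fit and -0.0048 in the 13-tumor fit. The cause of these changes was not tested. No paired analysis was possible because the groups share no replicate numbers.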
